A study of Homo sapiens with 3 samples.

Results

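The genes described here encode the coat of caveolae, the flask-shaped pits of the plasma membrane. They are the caveolin genes CAV1 and CAV2, the cavin genes CAVIN1, CAVIN2 and CAVIN3, and the genes of 2 membrane-bending partners, EHD2 and PACSIN2. They were taken by gene symbol, and all 7 were found, each under 1 identifier, among 58735 annotated genes. The data are bulk RNA sequencing of 3 established prostate cancer lines of human origin, each represented by 1 library. LNCAP, grown from a lymph node metastasis and responsive to androgen, was placed by the series design in the androgen-dependent class (ADPC). PC3, from a bone metastasis, and DU145, from a brain metastasis, were placed in the castration-resistant class (CRPC). No treatment or genotype change was stated for any line, and all were cultured with 10% fetal bovine serum, in media that the labels do not assign to lines. There were no replicates, so no difference between lines has a replicate check, and p-values are given only for the class comparison.

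Caveolae form where caveolins, hairpin proteins that insert into the inner leaflet of the membrane, are covered by a peripheral coat of cavins. Outside muscle, caveolin-1 and cavin-1 are both needed to shape the pit, and caveolin without cavin-1 stays in the membrane in a non-caveolar form. Caveolin-2 joins caveolin-1, cavin-2 and cavin-3 join cavin-1, EHD2 holds the neck of the pit and PACSIN2 is an F-BAR protein that helps to bend it. Caveolin-1 has long been studied in prostate cancer, where it is abundant in castration-resistant disease.

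The 3 lines held 3 different sets of coat transcripts. Levels are given as CPM, the count scaled to library size with TMM factors. At 1 CPM or more, LNCAP had 2 of the 7 genes, PACSIN2 and CAVIN1, the latter only just above the threshold. PC3 had 4, namely CAV1, CAV2, EHD2 and PACSIN2. DU145 had all 7. PC3 was thus the line with caveolin and without cavin: its CAV1 count was 3643, and its counts of CAVIN1, CAVIN2 and CAVIN3 were 0, 1 and 0. The pattern of 1 line with CAV1 and without CAVIN1, which was PC3, was the same at 0.5 and 5 CPM, at more than 3 counts, at 1 FPKM and with DESeq2 size factors. The counts fixed this outcome at all these settings, so it is no check. CAV1 had 0 counts in LNCAP, and CAVIN1 had 0 in PC3 and 18656 in DU145. At 5 CPM LNCAP kept PACSIN2 and PC3 lost EHD2.

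**Figure D1:**
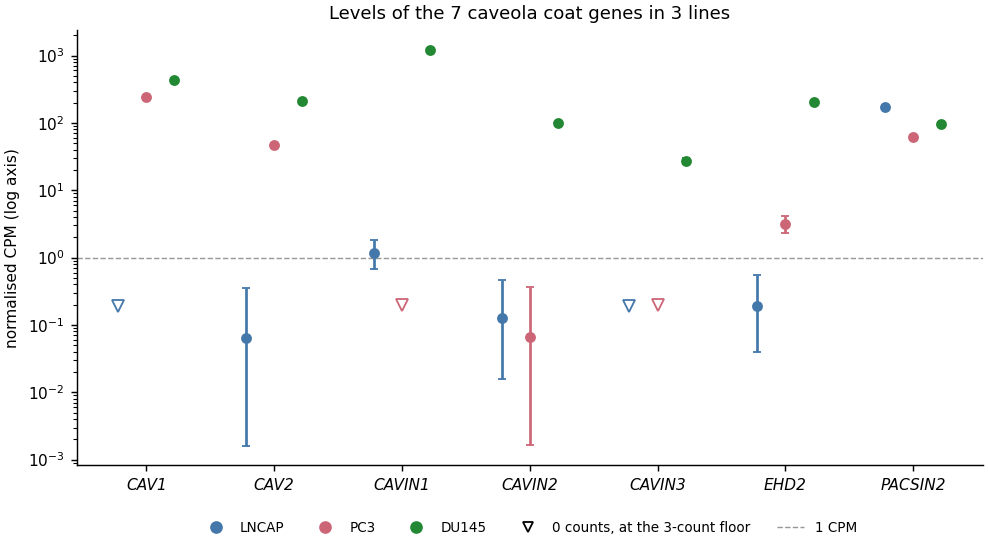
Normalised CPM on a log axis for the 7 coat genes in LNCAP, PC3 and DU145, 1 library each; bars are exact 95% Poisson counting intervals and open triangles mark 0 counts, drawn at the level of 3 counts. DU145 lies above 1 CPM for all 7 genes, whereas PC3 is at 0 or 1 count for the 3 cavins.

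Promoter sequences are shown for 4 members that were at 3 counts or fewer in LNCAP and high in DU145. They shared this in those 2 lines only. In PC3, CAV1 was at 238 CPM, CAV2 at 47.6, EHD2 at 3.14 and CAVIN2 at 0.0654. The RefSeq table held 5 of the 7 members. Each is the stretch of 250 bases before the first start that this table (GRCh38.p14) lists for the gene, written 5′ to 3′ on the gene's strand. Capitals mark every match, on either strand, to the GC box GGGCGG or to the TEAD-type motif GGAATG. No 2 of the marked matches overlap. CAV2 lies at chr7:116499488-116499737 and CAV1 at chr7:116524759-116525008, both on the plus strand, EHD2 at chr19:47713172-47713421 on the plus strand and CAVIN2 at chr2:191847089-191847338 on the minus strand. The CAV2 window lies wholly within the gene model that was counted, and the CAV1, EHD2 and CAVIN2 windows reach into theirs. CAVIN1 and CAVIN3 were not in the table.
CAV1: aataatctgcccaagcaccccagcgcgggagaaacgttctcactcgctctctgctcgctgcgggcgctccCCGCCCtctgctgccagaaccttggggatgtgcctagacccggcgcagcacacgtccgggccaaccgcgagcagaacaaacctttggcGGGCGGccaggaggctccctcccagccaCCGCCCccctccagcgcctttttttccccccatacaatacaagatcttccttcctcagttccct
CAV2: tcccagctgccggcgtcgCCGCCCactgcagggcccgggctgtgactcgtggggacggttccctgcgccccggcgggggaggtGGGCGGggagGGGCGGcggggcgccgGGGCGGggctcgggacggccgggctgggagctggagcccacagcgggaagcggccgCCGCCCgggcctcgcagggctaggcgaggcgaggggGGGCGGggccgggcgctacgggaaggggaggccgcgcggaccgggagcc
EHD2: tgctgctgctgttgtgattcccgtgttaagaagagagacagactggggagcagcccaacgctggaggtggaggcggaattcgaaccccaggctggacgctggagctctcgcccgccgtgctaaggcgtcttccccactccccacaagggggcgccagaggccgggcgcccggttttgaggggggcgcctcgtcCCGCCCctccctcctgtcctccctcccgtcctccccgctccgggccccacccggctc
CAVIN2: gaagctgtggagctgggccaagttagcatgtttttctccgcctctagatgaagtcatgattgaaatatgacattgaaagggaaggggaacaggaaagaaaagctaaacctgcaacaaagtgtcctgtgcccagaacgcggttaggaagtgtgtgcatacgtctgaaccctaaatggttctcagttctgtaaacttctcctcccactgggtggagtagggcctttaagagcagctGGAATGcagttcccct

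The 4 windows were unlike each other in base composition. CAV2 held 35 CG dinucleotides at 83.2% G and C, EHD2 20 at 69.6%, CAV1 18 at 63.6% and CAVIN2 4 at 48%, against a median of 11 over the 27305 genes with a window. GC boxes numbered 6 in CAV2, 3 in CAV1, 1 in EHD2 and 0 in CAVIN2, and 42.3% of all windows held at least 1. The GGAATG motif was found once, in CAVIN2, and 11.9% of all windows held it. The AP-1 motif TGANTCA, held by 6.60% of windows, and the TATA motif TATAAA, held by 11.1%, were in none of the 4. Such matches describe the letters of these windows.

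The caveolins were read first. CAV1 (ENSG00000105974, chromosome 7, 116524785 to 116561184, plus strand) encodes the main structural protein of non-muscle caveolae. It had 0 counts in LNCAP, 3643 in PC3 (238 CPM, 95% Poisson counting interval 231 to 246) and 6898 in DU145 (440 CPM, 430 to 451). LNCAP was the empty library, and the PC3 and DU145 intervals did not overlap. CAV1 was 1.85-fold lower in PC3 than in DU145 (95% counting interval of the ratio 1.77 to 1.92). CAV2 (ENSG00000105971, chromosome 7, 116287380 to 116508541, plus strand) encodes the partner that joins caveolin-1 in mixed oligomers. It had 1 count in LNCAP, 727 in PC3 (47.6 CPM, 44.2 to 51.1) and 3278 in DU145 (209 CPM, 202 to 216). CAV2 therefore followed the same order of lines as CAV1, with a wider gap between PC3 and DU145, at 4.40-fold lower in PC3 (4.06 to 4.77).

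The balance of the caveolin genes also differed between the castration-resistant lines. On the deposited FPKM scale, which is per gene length, CAV2 stood at 0.118 of the CAV1 level in PC3 (0.108 to 0.127) and at 0.280 in DU145 (0.269 to 0.292). The listed length covers the exon bases of all annotated transcripts, 6926 bases from 15 for CAV2 and 4082 from 9 for CAV1. Ratios between genes on this scale therefore depend on which transcripts were expressed, which was not examined. The odds of a CAV2 count against a CAV1 count were 2.38-fold higher in DU145 than in PC3 (conditional 95% interval 2.18 to 2.61), a ratio that needs no scaling between libraries. These intervals cover counting error only, and reads that carry no molecular identifier do not count molecules one by one. The 2 genes lie 16.2 kb apart. Their neighbours were described by the same counts. MET, which encodes the hepatocyte growth factor receptor and begins 111 kb beyond CAV1, had 28, 10880 and 3516 counts in LNCAP, PC3 and DU145. TES, a focal adhesion gene that ends 28.6 kb before the CAV2 gene model, had 586, 2013 and 1784. CAPZA2, a capping protein gene beyond MET, had 1873, 1429 and 1520. LNCAP was thus lowest in CAV2, CAV1, MET and TES and highest in CAPZA2.

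The cavins separated PC3 from DU145. CAVIN1 (ENSG00000177469, chromosome 17, 42402452 to 42423517, minus strand) encodes the protein that assembles the outer coat. It had 18 counts in LNCAP (1.15 CPM, 0.682 to 1.82), 0 in PC3 and 18656 in DU145 (1191 CPM, 1174 to 1208). DU145 was high, LNCAP was near the 1 CPM threshold and PC3 was empty. CAVIN1 was at least 6066-fold lower in PC3 than in DU145, a bound computed with 3 counts in PC3. CAVIN2 (ENSG00000168497, chromosome 2, 191834302 to 191847255, minus strand), whose product joins cavin-1 and shapes membranes, had 2, 1 and 1548 counts in LNCAP, PC3 and DU145. In DU145 this was 98.8 CPM (93.9 to 103.8), and PC3 was 1510-fold lower from its 1 count (271 to 59683). CAVIN3 (ENSG00000170955, chromosome 11, 6318946 to 6320647, minus strand), whose product binds protein kinase C delta, had 0, 0 and 427 counts. In DU145 this was 27.3 CPM (24.7 to 30.0), and PC3 was at least 139-fold lower. Of the 3 lines, DU145 alone thus held all 3 cavin genes above 1 CPM.

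The membrane-bending partners did not follow each other. EHD2 (ENSG00000024422, chromosome 19, 47713343 to 47743134, plus strand), an ATPase gene of the caveolar neck, had 3, 48 and 3196 counts in LNCAP, PC3 and DU145. PC3 stood at 3.14 CPM (2.32 to 4.16) and DU145 at 204 CPM (197 to 211), so that EHD2 was 65.0-fold lower in PC3 (48.9 to 88.3). Its direct neighbours did not share this spread: BICRA had 416, 486 and 466 counts and NOP53 1414, 1646 and 1277. PACSIN2 (ENSG00000100266, chromosome 22, 42835412 to 43015145, minus strand), which also serves endocytosis outside caveolae, had 2696, 937 and 1523 counts. It was the member that was highest in LNCAP, at 172 CPM (166 to 179), then 97.2 in DU145 (92.4 to 102.2) and 61.3 in PC3 (57.4 to 65.4).

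Per length, the coat genes made up unlike mixtures. The shares and ratios between genes given here rest on the listed lengths, which cover all annotated transcripts of a gene. Their summed FPKM was 37.6 in LNCAP, 79.0 in PC3 and 569 in DU145. PACSIN2 gave 99.0% of the sum in LNCAP, and the caveolins with the cavins under 1%: 0.0241% and 0.890%. In PC3 the caveolins gave 82.0% and the cavins 0.0255%. In DU145 the cavins gave 62.9% and the caveolins 24.2%. CAVIN1 stood at 2.88 times the CAV1 level in DU145 (311 against 108 FPKM; interval of the ratio 2.81 to 2.97), while in PC3 it was at least 1139-fold below CAV1. Within the DU145 cavins, CAVIN2 was at 0.0984 of CAVIN1 and CAVIN3 at 0.0524. EHD2 stood at 0.482 of CAV1 in DU145 (0.462 to 0.503) and at 0.0137 in PC3 (0.0101 to 0.0182).

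**Figure D2:**
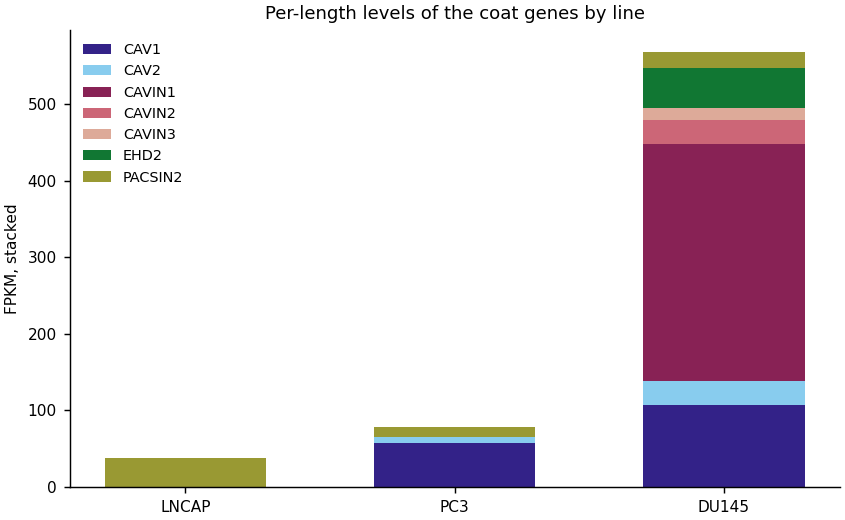
Deposited FPKM of the 7 coat genes stacked by line, 1 library each, on a linear axis from 0. The LNCAP bar is almost wholly PACSIN2, the PC3 bar mostly CAV1, and the DU145 bar mostly CAVIN1, with a total of 569 FPKM.

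The position of CAVIN1 was examined in the gene map, a step chosen after its values were seen. In PC3 it lay inside a stretch of 24 consecutive gene models, from DHX58 to PTP4A2P1 (chromosome 17, 42101404 to 42534009), that had at most 3 counts each. The stretch had 6 counts in PC3 in total, 3 of them in ATP6V0A1, a proton pump subunit gene, and 3 in the pseudogene PTP4A2P1. LNCAP had 10036 counts there and DU145 31384, of which 18 and 18656 were CAVIN1. The gene 13.9 kb from CAVIN1 on one side, STAT3, had 4525, 0 and 7105 counts in LNCAP, PC3 and DU145. ATP6V0A1, 35.3 kb away on the other side, had 1327, 3 and 1329. Outside the stretch PC3 was read again, with 48 counts in C17orf113 and 212 in NAGLU. PC3 thus lacked reads over CAVIN1 and its neighbours together, whereas LNCAP had few reads in CAVIN1 beside 4525 in STAT3.

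**Figure D3:**
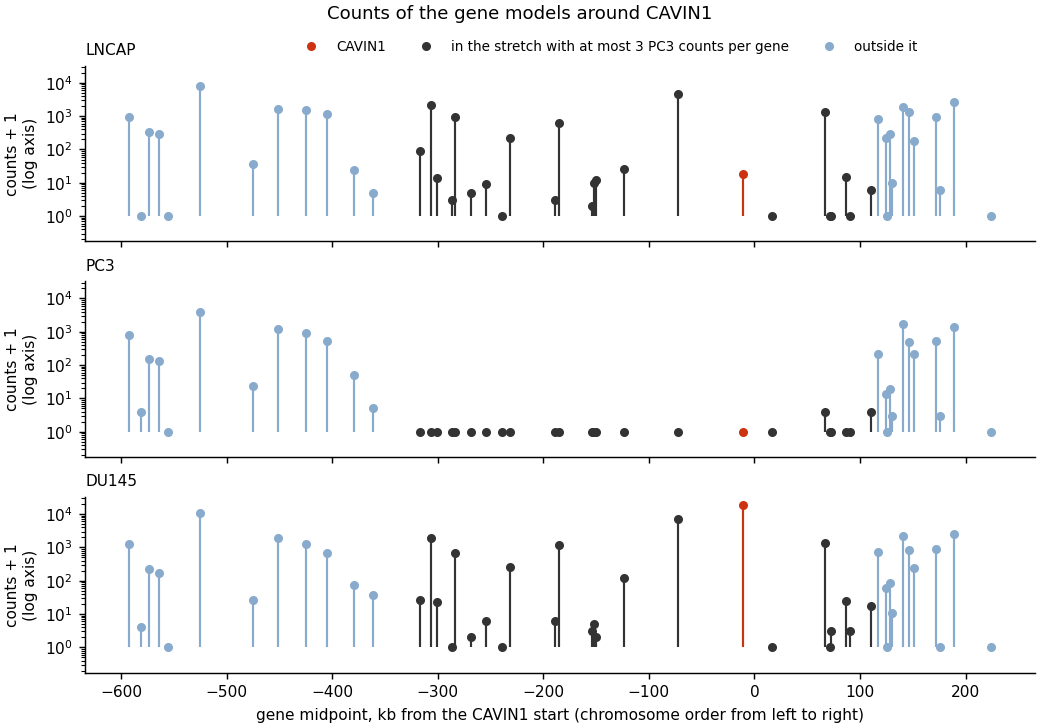
Counts plus 1, on a log axis, of each gene model around CAVIN1 against the distance of its midpoint from the CAVIN1 start in kb, for the 3 libraries. In PC3 the points of the stretch lie at or near 0 counts, while STAT3 and ATP6V0A1 on either side of CAVIN1 reach 4525 and 1327 counts in LNCAP.

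The stretch held 9 protein-coding genes that were at 1 CPM or more in both other lines, CAVIN1 among them. In PC3 the next longest stretch by this measure held 4, on chromosome 4. By the same rule the longest in LNCAP held 9, on chromosome 5, and in DU145 4, on chromosome 17. That LNCAP stretch had 9, 1391 and 1110 counts in LNCAP, PC3 and DU145. With at most 10 counts allowed per gene model the stretch around CAVIN1 held the same number, 9, and with 0 counts it held 8. The longest LNCAP stretch then held 10, on chromosome 5, and 4, on chromosome 4. The next longest in PC3 held 7 and 3, both on chromosome Y, and the longest in DU145 4 and 3. CAVIN2 and CAVIN3, with 1 and 0 counts in PC3, lie on other chromosomes. On one side of CAVIN3, SMPD1 had 1189, 370 and 131 counts in LNCAP, PC3 and DU145, APBB1 118, 395 and 491, and HPX 32, 8 and 10. On the other side CCKBR, the nearest, had 0, 1 and 1, CNGA4 1, 8 and 7, and FAM160A2 709, 590 and 328. PC3 thus had reads in SMPD1, APBB1 and FAM160A2, and fewer than 10 in each of CCKBR, CNGA4 and HPX.

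The first pair set PC3 beside LNCAP, a line of each class. The call of at least 4-fold needed a log2 ratio of 2 or more in size, computed after adding 0.5 counts, and a 95% counting interval that left out a ratio of 1. CAV1 was at least 1242-fold higher in PC3, CAV2 744-fold higher from 1 LNCAP count (133 to 29408) and EHD2 16.4-fold higher from 3 LNCAP counts (5.27 to 82.1). CAVIN1 was lower, at least 5.87-fold, from 18 LNCAP counts to 0. PACSIN2 was 2.81-fold lower in PC3 (2.61 to 3.03), which did not reach the call, and CAVIN2 and CAVIN3 had too few counts for a fold. Of the 7 members 3 were called higher and 1 lower. Of the 18025 genes tested, those reaching 1 CPM in any library, 13% were called higher and 13.4% lower. All 7 members passed that filter, but CAVIN2 and CAVIN3 did so through DU145 alone. The called CAV1, CAV2 and EHD2 passed it only through PC3 and DU145, so these counts are a description. With 1 added to FPKM, 2 members were called, CAV1 and CAV2.

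DU145 was compared with LNCAP in the same way. CAV1 was at least 2294-fold higher in DU145 and CAVIN3 at least 142-fold higher. CAV2 was 3270-fold higher from 1 LNCAP count (587 to 129214), CAVIN1 1034-fold (654 to 1745), CAVIN2 772-fold from 2 LNCAP counts (213 to 6382) and EHD2 1063-fold from 3 LNCAP counts (363 to 5157). PACSIN2 alone went the other way, at 1.77-fold lower (1.67 to 1.89), under the call. Of the 7 members 6 were called higher and none lower, where 13.7% of all tested genes were called higher and 12.1% lower. The median log2 ratio of the members was 9.83, against -0.003 over all tested genes, and it was the same with CAV1 and CAVIN3 at their bounds. Of the 6 called, 5 had passed the filter only through lines other than LNCAP, CAVIN2 and CAVIN3 through DU145 alone, so this count and median describe the members and support nothing.

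Between the castration-resistant lines, 5 of the 7 members were called lower in PC3, namely CAV2, the 3 cavins and EHD2. None was called higher. Of all tested genes 10.6% were called lower in PC3 and 8.54% higher. CAV1 and PACSIN2 were under the call, PACSIN2 at 1.59-fold lower in PC3 (1.46 to 1.72). The median log2 ratio of the members was -6.01, against 0 over all tested genes. CAVIN2 and CAVIN3 had passed the filter through DU145 alone, so here too the count and median are a description. CAV1 was thus empty in LNCAP and under 2-fold apart between PC3 and DU145.

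**Figure D4:**
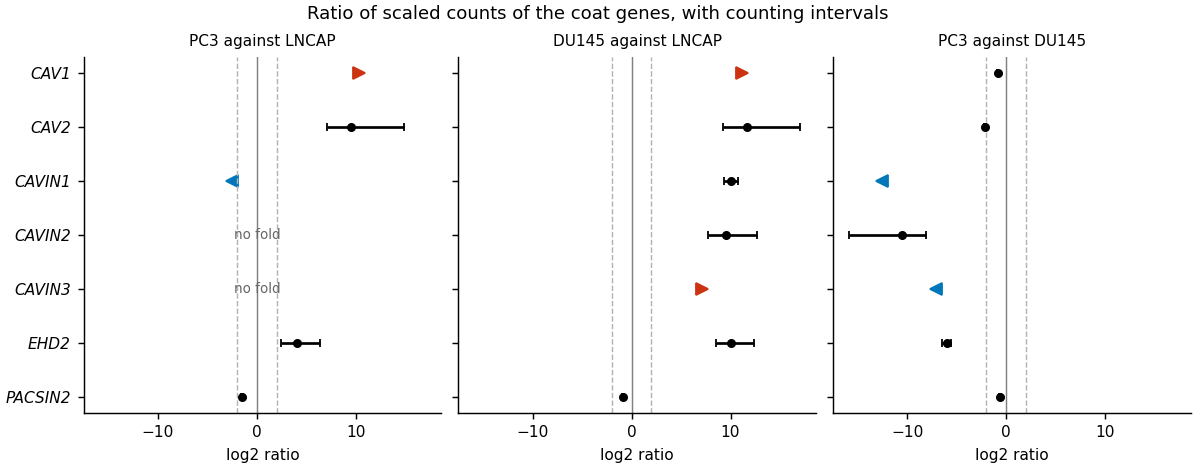
Log2 ratio of scaled counts for the 7 coat genes in the 3 pairs of lines, with 95% counting intervals; arrowheads are bounds computed with 3 counts in the empty library, and dashed lines mark 4-fold. Both comparisons with LNCAP share its library, and DU145 against LNCAP shows 6 genes to the right of the dashed lines.

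The class comparison used the 2 castration-resistant libraries against that of LNCAP, with edgeR's quasi-likelihood test and Benjamini-Hochberg adjustment over all 18025 tested genes. It has 1 residual degree of freedom, so its error rests on how far the PC3 and DU145 libraries lie apart. None of the 7 members was called, with 0% of all genes called and 1746 genes at an unadjusted p under 0.05. Fitted log2 ratios of genes with a 0 depend on the model's added count and are no bounds. CAV1 was closest, with a fitted log2 ratio of 15.36 and an adjusted p of 0.266 in edgeR, then CAV2 with 10.80 and 0.316. CAVIN1 had a fitted log2 ratio of 9.0 and an adjusted p of 0.694 in edgeR. For CAVIN1 the direction rested on DU145: its log2 ratio to LNCAP was 9.97 with DU145 alone and -5.19 with PC3 alone. CAV1 had the same sign in each line, at 13.75 and 12.85 with 0.5 counts added. Among the 7 members the edgeR adjusted p ranged from 0.266 to 0.694. DESeq2 called 5 members, CAV1, CAV2, CAVIN2, CAVIN3 and EHD2, among 7.22% of all genes. The CAVIN2 and CAVIN3 calls of DESeq2 (adjusted p of 0.0127 and 1.55e-07) were made although PC3 had 1 and 0 counts of them. limma-voom called 0 genes, with 1334 at an unadjusted p under 0.05.

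Paralogues of the coat genes were read next. Of 7 listed, 6 were tested, and CAV3, the muscle caveolin gene, had 3, 2 and 1 counts in LNCAP, PC3 and DU145. CAVIN4, the muscle cavin gene, had 3, 43 and 46 counts, so that PC3, which lacked the other cavins, held it at 2.81 CPM (2.04 to 3.79). PACSIN1, the neuronal PACSIN gene, was highest in LNCAP with 397, 87 and 70 counts. EHD1, an endocytic recycling gene, had 651, 3450 and 2311 counts and was 5.42-fold higher in PC3 than in LNCAP (4.98 to 5.90). In PC3 against LNCAP 2 paralogues were called higher, CAVIN4 and EHD1, and 1 lower, PACSIN1. In DU145 against LNCAP 1 was higher, CAVIN4, and 1 lower, PACSIN1, and in PC3 against DU145 none was called. These counts of 6 genes stand beside 13% higher and 13.4% lower of all tested genes in the first pair, 13.7% and 12.1% in the second, and 8.54% and 10.6% in the last. EHD3, EHD4 and PACSIN3 were called in no pair.

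Other endocytic coats and scaffolds had 1 called gene. Of 13 genes of clathrin, its AP-2 adaptor, flotillins and dynamins, only DNM1 was called, higher in PC3 and in DU145 than in LNCAP. Of all tested genes 26.4% were called in either direction in PC3 against LNCAP, 25.8% in DU145 against LNCAP and 19.1% in PC3 against DU145. With 13 genes nothing particular to the list is read from its counts. DNM1, a dynamin gene best known from neurons, had 64, 720 and 1362 counts, which is 11.5-fold (8.90 to 15.1) and 21.2-fold higher (16.5 to 27.7). DNM2, the widely used dynamin gene, had 4207, 4058 and 3713, and CLTC, the clathrin heavy chain gene, 15305, 14599 and 15731. The median log2 ratio of this list was 0.07 in PC3 against LNCAP, 0.27 in DU145 against LNCAP and -0.07 in PC3 against DU145. FLOT2, which encodes a raft scaffold, was the one with the widest gap under the call between PC3 and DU145, at 2.95-fold lower in PC3 (2.72 to 3.20).

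Partners and regulators of caveolae had calls in both directions. Of 11 genes, 3 were called higher and 2 lower in PC3 against LNCAP, 2 higher and 2 lower in DU145 against LNCAP, and 2 higher in PC3 against DU145. Of all tested genes 26.4%, 25.8% and 19.1% were called in either direction in these pairs, and with 11 genes nothing particular to the list is read from its counts. FLNA, the actin crosslinker filamin A, had 8296, 38102 and 35459 counts in LNCAP, PC3 and DU145. PRKCA, a protein kinase C gene, had 400, 2802 and 2099. PRKCD, the gene of the kinase that cavin-3 binds, went the other way with 2725, 390 and 509 counts, and was 6.83-fold lower in PC3 than in LNCAP (6.14 to 7.62). NOS3, the endothelial nitric oxide synthase gene whose product caveolin-1 binds, had 562, 3 and 0 counts, so nearly all NOS3 reads were in LNCAP, the line with 0 counts of CAV1. PC3 was highest in the kinase genes FYN (25, 387 and 58 counts) and SRC (1440, 3526 and 871). ABL1, INSR, NOSTRIN, PPP1CC and ROR1 were called in no pair.

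**Figure D5:**
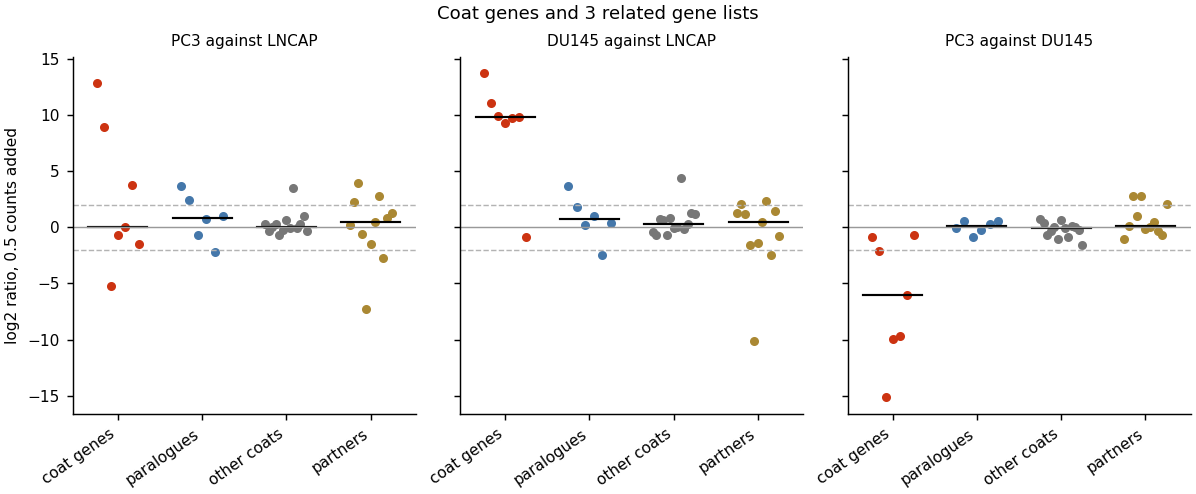
Log2 ratio with 0.5 counts added for each tested gene of the coat, its paralogues, other endocytic coats and caveola partners, in the 3 pairs of lines; short black lines are medians and dashed lines mark 4-fold. Of the other coats DNM1 alone passes a dashed line, and in DU145 against LNCAP 6 of the 7 coat genes lie above 9; the partner NOS3 lies past 4-fold in PC3 against DU145 from 3 and 0 counts and was not called.

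The genes most like each member were found by distance in log2 CPM, with 0.5 CPM added, over the 3 libraries. For CAV1 they were LGALS1, EDIL3 and KIRREL1 (distances 0.75, 0.93 and 0.99), and 3 protein-coding genes in all lay within 1. For CAV2 they were NT5E, MMP14 and RAB34 (0.47, 0.52 and 0.59). CAVIN1 had only UCHL1 within a distance of 1, at 0.60, and the CPM of UCHL1 was 1.73 in LNCAP, 0 in PC3 and 896 in DU145. EHD2 was nearest to EFEMP1 (0.71) and PACSIN2 to NFKB2 (0.12), where 491 genes lay within 1. With 3 libraries such likeness is a description.

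The libraries held 15319045 to 15878546 counts, and a level of 3 counts corresponded to 0.191 to 0.196 scaled CPM. Of 5 prostate epithelial line markers, KRT8 and KRT18 were read in every line, while KLK3 was read only in LNCAP. Caveola-rich cell types that a culture should lack were checked by their markers. The 5 endothelial markers summed to 9.53 CPM in LNCAP, 39.3 in PC3 and 1.21 in DU145, with 1, 2 and 0 of them at 1 CPM. PC3 held PECAM1 and KDR (307 and 290 counts) and no counts of CDH5. The 4 adipocyte markers summed to 0.191 to 5.10 CPM (at most 2 at 1 CPM), the 5 muscle markers to 1.90 to 2.94 CPM (1 at 1 CPM in each line) and the 6 fibroblast markers to 35.5, 52.1 and 10.1 CPM (2, 3 and 1 at 1 CPM), and ADIPOQ, LEP, DES and LUM were at 0 in every library. Other markers of these lists peaked in different lines. FABP4 had 0, 59 and 0 counts in LNCAP, PC3 and DU145, PDGFRA 3, 66 and 0, and COL3A1 31, 239 and 2, all highest in PC3. Highest in LNCAP were VWF (144, 1 and 0), PLIN1 (61, 19 and 3), ACTA2 (29, 7 and 10) and COL1A1 (518, 488 and 148). MYH11 (13, 21 and 25) was highest in DU145. DU145 had the lowest endothelial, adipocyte and fibroblast sums, while its muscle sum of 2.68 CPM lay between 1.90 in PC3 and 2.94 in LNCAP. Whether cells with these markers had a part in the coat gene values of any line was not tested. In bulk RNA, fewer cells with a transcript and less transcript per cell cannot be told apart.

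The gene models themselves limit some values. CAVIN1 overlapped no other gene model, and the antisense model within CAV1 shared no exon base with it. CAV2 shared 76 of its 6926 exon bases with an antisense model that had 0, 4 and 26 counts. CAVIN3 shared 33.3% of its exon bases with a model on the other strand that had 0, 0 and 8 counts, and CAVIN2 7.22% with one that had 7, 0 and 22. PACSIN2 shared 3.40% with ARFGAP3 on the same strand. The use of strand in counting is not given in the sources used here, so reads in these shared bases could belong to either gene. The counts are per gene, and the 9 annotated CAV1 transcripts were not told apart.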

How the data were processed

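One library per line was sequenced from total RNA. The authors deposited raw read counts per gene and, in separate tables, FPKM values per gene, per the file headers and values; each FPKM equalled the count divided by listed gene length and a constant per library, within 0.1%. TopHat2 2.0.9, Bowtie2 2.0.6, Cuffdiff 2.1.1 and Cufflinks 2.1.1 appear in the submitters' processing notes, with no role stated. Not given in the sources used here are the read counter, its strand setting and the build. All 58735 identifiers and coordinates matched GENCODE release 29, so positions are on GRCh38.

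Genes reaching 1 CPM in any library were kept (18025), and TMM factors were computed on them (edgeR 4.0.16, R 4.3.3; 1.016, 0.998 and 0.987 for LNCAP, PC3 and DU145). Ratios carry exact conditional binomial intervals, and levels exact Poisson intervals (Python 3.11.15, scipy 1.17.1). Bounds use 3 counts in an empty library. No fold is given where both counts are 3 or fewer. DESeq2 1.42.0 and limma 3.58.1 were alternatives for the class test. The calls and the class test were tested on simulated data. The class simulation gave PC3 and DU145 the same mean for every gene. In the data 19.1% of tested genes were called 4-fold apart between these lines, so the simulation does not show how the class test behaves here.

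The 7 members and the gene lists were chosen with earlier results of these data known. The text names all members, any listed gene called in a pair, the 3 nearest coding genes on each side where a result turns on them, and up to 3 nearest genes in pattern. Listed genes without a call and further genes around CAVIN1 were named after their values were seen.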

Additional observations from a re-analysis of the deposited data

How the results depend on the processing

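The counts of members called in PC3 against DU145 (5) and in DU145 against LNCAP (6) stayed within 1.5 times under every alternative run: 3 other scalings, no filter or a 5 CPM filter, 5 added counts, FPKM with 0.1 or 1 added, and a 2-fold call. In PC3 against LNCAP the 4 called became 2 with 1 added to FPKM, where CAVIN1 and EHD2 dropped out, and in PC3 against DU145 CAV2 did; CAVIN1 and EHD2 are under 1 FPKM in LNCAP and PC3, so an addition of 1 outweighs them. With 0.1 added 3 were called, without CAVIN1. In the class comparison, 0 members called by edgeR (0 of all genes) became 5 with DESeq2 (1302 of all genes); the cause was not tested. Leaving out PC3 or DU145 leaves no residual degrees of freedom, so it gave values without a test. Of 126 recomputed log2 ratios of single members, 95 stayed inside the counting interval of the ratio under the main setting, 31 did not, and no called ratio changed sign. The 95 include CAVIN2 and CAVIN3 in PC3 against LNCAP, for which no fold is given. With 0 counts in both lines, the CAVIN3 ratio there is 0 under every setting by construction. No scaling moved the median log2 ratio of all tested genes by more than 0.1. The ratio of CAVIN1 to CAV1 in DU145 is 2.88 on the TPM scale by construction, since TPM and FPKM differ by a constant within a library, so this is no check. No paired analysis was possible because each line has 1 library. Depth limits LNCAP and PC3 members at 3 counts or fewer, whose levels are known only as upper limits or wide intervals.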

Other observations

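Genes beside the other coat genes also differed between the lines. TMEFF2, 102 kb from CAVIN2, had 727, 2 and 4 counts in LNCAP, PC3 and DU145, where CAVIN2 had 2, 1 and 1548. The 2 genes were thus opposite between LNCAP and DU145, and both were near 0 in PC3. MDFIC, the third coding gene before CAV2, followed the caveolins with 2, 356 and 838 counts. TFEC, between MDFIC and TES, was read mainly in PC3, with 1, 71 and 1 counts. ARFGAP3, which overlaps PACSIN2, followed it in being highest in LNCAP, with 1306, 534 and 441 counts. The protein-coding genes closest in pattern to CAVIN2 were MT1E, CELF2 and KCNQ3 (distances 0.33, 0.42 and 0.43), and those closest to CAVIN3 were LGSN, SFTA3 and SLFN12 (0.06, 0.20 and 0.35), each at under 0.2 CPM in LNCAP and PC3.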
